A study of Mus musculus with 20 samples.

Results

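The 33 genes described here encode enzymes of the tricarboxylic acid (TCA) cycle and of the breakdown of the branched-chain amino acids leucine, isoleucine and valine, with the kinase and the phosphatase that control the second pathway. They were taken by symbol from the 23284 genes of the deposited tables, 18 of them as cycle enzymes and 15 as branched-chain amino acid genes. The rule uses names and no measured value, but the members were chosen with earlier results of these data known. Shares of all genes tested are set beside their counts as description. All 33 were found, and all 33 had a mean of at least 0.5 FPKM (fragments scaled to transcript length and to the number of mapped fragments), the minimum for the tests. The cycle oxidises acetyl groups in mitochondria and passes electrons to the respiratory chain, on which the beating heart depends for ATP. Branched-chain amino acids are first transaminated by Bcat2 and then decarboxylated by the branched-chain keto acid dehydrogenase, which Bckdk switches off by phosphorylation and Ppm1k switches on again. The later enzymes carry the carbon to acetyl-CoA and to succinyl-CoA, an intermediate of the cycle.

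Messenger RNA was measured in the hearts of 20 C57BL/6 mice, 2 in each of 10 groups. CKO mice carried floxed Wnt5a together with Myh6-Cre/Esr 1, a transgene in which the cardiomyocyte promoter of Myh6 drives a Cre recombinase that tamoxifen activates, and control mice are labelled only with floxed Wnt5a. Loss of Wnt5a, which encodes a secreted Wnt ligand, and presence of the transgene therefore cannot be told apart. CKO hearts were 13 and 31 at 2 weeks and 3 and 41 at 4 weeks after transverse aortic constriction (TAC, a surgical narrowing that loads the left ventricle with pressure), 14 and 15 at 2 weeks and 4 and 8 at 4 weeks after a sham operation, and 21 and 24 at the end of tamoxifen with no operation. Control hearts were 11 and 32 at 2 weeks and 1 and 2 at 4 weeks after TAC, 12 and 16 at 2 weeks and 6 and 7 at 4 weeks after sham, and 22 and 23 at the end of tamoxifen. Each title gives the heart a number of its own, but no label states that the 2 hearts of a group were handled separately, so p-values measure only the spread between these samples, which may be technical. Age and sex are not given in the labels.

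Relative depth, estimated from the steps between low values, lay between 0.879 and 1.14 over the 20 hearts; how many reads each library held is not stated in the sources used here. Esr1, whose sequence the transgene holds, had 197 to 931 FPKM in CKO hearts and 0.101 to 0.465 FPKM in control hearts. All 20 hearts thus matched their labels for the transgene, while labels of operation and time cannot be checked by it. Wnt5a was 0.853 to 2.33 FPKM in CKO hearts and 1.58 to 4.11 FPKM in control hearts, with overlap. The 12 cardiomyocyte markers examined, among them Tnnt2 and Myl2, were above 0 in every heart. Atrial markers set 5 hearts apart, with Myl7 at 32.2 to 372 FPKM in hearts 11, 14, 16, 21 and 24 and at most 1.66 FPKM in the others. In RNA from tissue of mixed cell types, fewer cells of a type and less RNA per cell cannot be told apart.

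FPKM is scaled to transcript length, so levels can be set side by side between genes. Over the 20 hearts the cycle genes had a median level of 539 FPKM, against 68.3 FPKM for the branched-chain genes. Mdh1, the cytosolic malate dehydrogenase, was the most abundant with a mean of 2148 FPKM, followed by Idh2, the NADP-linked mitochondrial isocitrate dehydrogenase, at 1759 FPKM and Mdh2, the mitochondrial malate dehydrogenase, at 1577 FPKM. Ppm1k was the least abundant at 28.2 FPKM. Suclg2, the subunit that makes succinyl-CoA ligase GTP-forming, averaged 56.2 FPKM, below every other cycle gene, while its ATP-forming counterpart Sucla2 averaged 524 FPKM. The widest spread between hearts was that of Ppm1k, 2.84-fold from the lowest to the highest heart, and Bckdha, an E1 subunit of the keto acid dehydrogenase, at 2.81-fold. The narrowest were Hibch, a valine pathway hydrolase, at 1.36-fold and Sdhd, a membrane anchor of succinate dehydrogenase, at 1.39-fold. The cycle genes made up 1.58% to 2.42% of the summed FPKM of a heart, and the branched-chain genes 0.160% to 0.276%.

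Some values carry an uncertainty of assignment. Suclg2 has a processed pseudogene, Gm15163, that is 98.9% identical over 1302 bases, and no source used here gives the treatment of reads that map to both. Exons of Idh3b, Mdh1, Bcat2, Bckdha, Mccc1, Aldh6a1 and Pcca overlap an annotated gene on the other strand, and those of Hibadh overlap Gm24355 on the same strand. Stretches of Ppm1k resemble Gldc (96.0% over 200 bases) and Zmynd8 (95.3% over 212 bases). The libraries were stranded, but whether strand was used in the counting is not stated, and without it reads of both genes cannot be told apart.

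The first comparison asked what pressure overload did to these genes in control hearts at 2 weeks. Nearly all of them were lower after TAC: 17 of 18 cycle genes and 14 of 15 branched-chain genes fell, and 0 rose, while 12.8% of the 12589 genes tested fell. All 33 were lower in each TAC heart than in each sham heart, as were 31.3% of all genes tested. The median difference on the log2(FPKM + 0.5) scale was -0.59 for the cycle and -0.74 for the branched-chain genes, against -0.00017 for all genes tested. Calls are those of a limma fit of all 20 hearts with a Benjamini-Hochberg adjusted p under 0.05 over the genes tested, and each difference is given with the standard error (SE) of that fit.

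In the cycle, the largest fall was that of Sdha, the flavoprotein of succinate dehydrogenase (chromosome 13, 74322254 to 74350280, mm10). Sdha was 512 and 565 FPKM in control TAC hearts 11 and 32, against 937 and 1059 FPKM in sham hearts 12 and 16. Both TAC hearts were well under both sham hearts, a difference of -0.89 ± 0.12 (limma adjusted p = 0.00022). Idh3a, the catalytic subunit of NAD-linked isocitrate dehydrogenase, was 252 and 267 FPKM after TAC and 422 and 485 FPKM after sham, a difference of -0.80 ± 0.13 (limma adjusted p = 0.00087). Suclg1, the alpha subunit shared by both succinyl-CoA ligases, was 311 and 326 FPKM after TAC and 529 and 548 FPKM after sham (-0.76 ± 0.12, limma adjusted p = 0.00052). Its partners fell as well, Sucla2 by 0.59 to 377 and 404 FPKM in TAC hearts, against 614 and 565 FPKM in sham hearts, and Suclg2 by 0.58 to 37.9 and 40.7 FPKM, against 55.0 and 63.6 FPKM. Sdhc, the other membrane anchor of succinate dehydrogenase, was 349 and 378 FPKM after TAC and 557 and 648 FPKM after sham (-0.73 ± 0.12, limma adjusted p = 0.00077). The one cycle gene that did not pass was Ogdh, the E1 component of 2-oxoglutarate dehydrogenase, at -0.38 ± 0.14 (limma adjusted p = 0.058).

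In the branched-chain pathway the phosphatase had the largest difference. Ppm1k (chromosome 6, 57506502 to 57535468) was 14.0 and 16.8 FPKM in the TAC hearts and 39.0 and 30.2 FPKM in the sham hearts, a difference of -1.14 ± 0.16 (limma adjusted p = 0.00025). The TAC hearts lay further below the sham hearts than the hearts of either group lay apart. The opposing kinase Bckdk fell less, to 38.3 and 41.3 FPKM after TAC, against 47.0 and 53.1 FPKM after sham (-0.32 ± 0.10, limma adjusted p = 0.03). Both E1 subunits of the dehydrogenase they control had larger differences than the kinase. Bckdhb (chromosome 9, 83925145 to 84124240) was 28.8 and 27.0 FPKM after TAC and 57.0 and 59.9 FPKM after sham (-1.06 ± 0.11, limma adjusted p = 2.6e-05). Bckdha (chromosome 7, 25629946 to 25658981) was 151 and 152 FPKM after TAC and 279.8 and 293 FPKM after sham (-0.92 ± 0.10, limma adjusted p = 3.2e-05). Mccc2, a subunit of the methylcrotonyl-CoA carboxylase of leucine breakdown, was 27.1 and 26.4 FPKM after TAC and 51.5 and 53.2 FPKM after sham (-0.96 ± 0.12, limma adjusted p = 0.00013). Hibch alone did not pass, at -0.24 ± 0.09 (limma adjusted p = 0.055).

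Markers of cell types moved with these falls. The summed level of the 12 cardiomyocyte markers was 96952 and 105730 FPKM in the control TAC hearts and 127171 and 128187 FPKM in the sham hearts, and 5 of the 12 fell, with a median of -0.34. All 8 fibroblast markers rose, with a median of 1.77 and sums of 1710 and 1642 FPKM after TAC against 698 and 605 FPKM after sham, and none was at 0. Of the other cell types, 2 of 4 smooth muscle markers and 1 of 5 endothelial markers rose, and 0 of 6 macrophage markers passed in limma, with 0 at an unadjusted p under 0.05. Of all genes tested, 11.0% rose in this comparison. The part of these cell types in the result was not tested. Hearts 11 and 16 of this comparison are among those with atrial markers: 11 cycle genes fell without either one of them, the call of Bckdk was lost without 11, 16 or 32 (limma adjusted p up to 0.23), and without all 5 such hearts 4 cycle and 8 branched-chain genes passed. That last fit leaves 1 TAC heart (32) and 1 sham heart (12), each assumed to vary like the other groups. The differences of genes that no longer passed kept their sign, at -0.60 for Sucla2, -0.66 for Idh3a, -0.56 for Fh1 and -0.43 for Suclg2. Of these genes, all but Sucla2 (-0.59 with all hearts) had a smaller difference than with all hearts. Idh2 was at -0.21 against -0.45 with all hearts, Bckdk at -0.18 against -0.32, Sdhd at -0.23 against -0.32 and Pccb at -0.28 against -0.40.

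**Figure D1:**
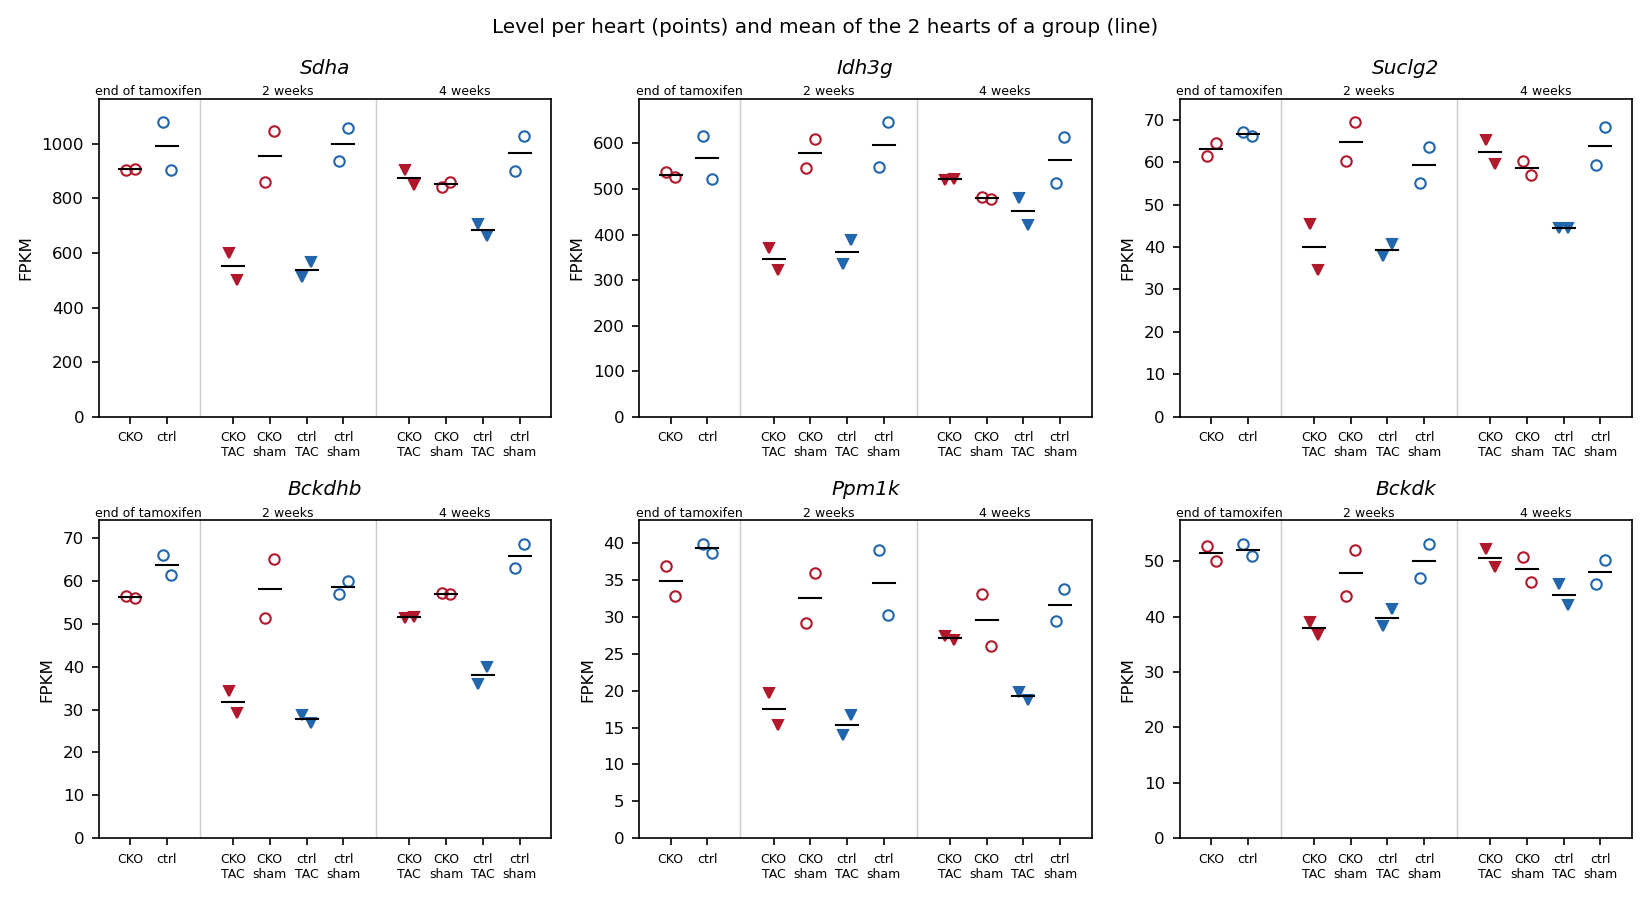
Level of 6 members in each heart in FPKM (vertical axis, from 0) by group (horizontal axis); red marks CKO and blue control (ctrl), triangles TAC and open circles hearts without TAC, and the line is the mean of the 2 hearts. All 4 TAC hearts of 2 weeks lie under the sham hearts of that time for each of these genes; at 4 weeks the control TAC hearts are the lower pair of all 4 pairs for Sdha, Suclg2, Bckdhb and Ppm1k.

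At 4 weeks 3 of 18 cycle genes and 10 of 15 branched-chain genes fell in control hearts, with 0 risen, where 6.37% of all genes tested fell. The medians were -0.28 and -0.37, and 12 cycle and 14 branched-chain genes were lower in both TAC hearts than in both sham hearts, as were 28.6% of all genes tested. The 3 cycle genes were 2 of succinate dehydrogenase and Suclg2. Sdhc was 491 and 454 FPKM in TAC hearts 1 and 2, against 655 and 734 FPKM in sham hearts 6 and 7 (-0.55 ± 0.12, limma adjusted p = 0.0089). Suclg2 was 44.4 and 44.4 FPKM after TAC and 59.3 and 68.2 FPKM after sham (-0.51 ± 0.12, limma adjusted p = 0.015). Sdha was 705 and 662 FPKM after TAC and 899.6 and 1029 FPKM after sham (-0.49 ± 0.12, limma adjusted p = 0.018). In each of these the groups did not overlap. Sucla2 did not overlap either, at 474 and 463 FPKM after TAC and 509 and 639 FPKM after sham, but did not pass (-0.28 ± 0.13, limma adjusted p = 0.15).

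The 10 branched-chain genes that fell at 4 weeks were Bckdha, Bckdhb, Dbt, Ppm1k, Ivd, Mccc2, Auh, Hibadh, Aldh6a1 and Pccb, while Bcat2, Bckdk, Mccc1, Hibch and Pcca did not pass. Bckdhb was 36.0 and 39.9 FPKM in control TAC hearts and 62.9 and 68.7 FPKM in sham hearts (-0.79 ± 0.11, limma adjusted p = 0.00059). Aldh6a1, the methylmalonate semialdehyde dehydrogenase of valine breakdown, was 86.8 and 77.4 FPKM after TAC and 127 and 141 FPKM after sham (-0.70 ± 0.12, limma adjusted p = 0.003). Ppm1k was 19.8 and 18.8 FPKM after TAC and 29.5 and 33.8 FPKM after sham (-0.70 ± 0.16, limma adjusted p = 0.012). These 3 pairs of TAC hearts all lay below their sham hearts. Ivd, the isovaleryl-CoA dehydrogenase of leucine breakdown, was 202 and 157 FPKM after TAC and 249 and 285 FPKM after sham (-0.58 ± 0.13, limma adjusted p = 0.012). Bckdk was 45.8 and 42.1 FPKM after TAC and 45.9 and 50.3 FPKM after sham and did not pass (-0.13 ± 0.10, limma adjusted p = 0.44). Cardiomyocyte marker sums were 111797 and 120469 FPKM in these TAC hearts and 101337 and 118629 FPKM in the sham hearts, with 2 of the 12 higher and 0 lower. Fibroblast sums were 909 and 892 FPKM after TAC and 611 and 609.7 FPKM after sham, with 4 of 8 higher. Of all genes tested, 6.36% were higher. The part of these cell types was not tested at this time either. The counts rest on single hearts: without heart 1, 2 or 7 the branched-chain genes called were 4, 4 and 2, and the cycle genes 1, 0 and 0, while without heart 6 the cycle genes called were 5. The calls of Sdha, Suclg2 and Ppm1k were lost without heart 1, 2 or 7 and those of Sdhc and Ivd without 2 or 7, with limma adjusted p up to 0.14, while Bckdhb and Aldh6a1 passed without any one heart. In a fit of the compared hearts alone 3 branched-chain genes fell.

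Over both times, 16 of 18 cycle genes and 14 of 15 branched-chain genes fell in control hearts (16.1% of all genes tested fell), with medians of -0.44 and -0.54. The exceptions were Idh2 at -0.18 ± 0.09, Sdhd at -0.14 ± 0.07 and Hibch at -0.11 ± 0.06. The 4 TAC hearts lay below the 4 sham hearts without overlap for 11 cycle and 14 branched-chain genes, against 12.2% of all genes tested. Among the cycle genes the falls were largest for Sdha (-0.69 ± 0.09), Sdhc (-0.64 ± 0.08), Idh3a (-0.57 ± 0.09) and Suclg2 (-0.55 ± 0.09), and Sucla2 fell by 0.44. Among the branched-chain genes they were largest for Bckdhb (-0.92 ± 0.08), Ppm1k (-0.92 ± 0.11), Mccc2 (-0.76 ± 0.09) and Aldh6a1 (-0.75 ± 0.09), and Bckdk fell by 0.23, a call lost without heart 2, 7, 11 or 16 (limma adjusted p up to 0.11). For the 8 genes named as largest, the limma adjusted p was at most 0.00052. Genes that no longer passed without the 5 hearts with atrial markers included Cs (-0.35, against -0.44 with all hearts) and Mdh1 (-0.38, against -0.42). Among them were also Ogdh (-0.26, against -0.41) and Mdh2 (-0.26, against -0.32).

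In CKO hearts at 2 weeks nearly all genes of both pathways were also lower after TAC: 17 of 18 cycle genes and 14 of 15 branched-chain genes passed, and 0 rose, where 9.21% of all genes tested fell. All 33 were lower in both TAC hearts than in both sham hearts, as were 30.8% of all genes tested, and the medians were -0.56 and -0.70. Sdhd, at -0.25 ± 0.10, and Hibch, at -0.18 ± 0.09, did not pass. Sdha was 601 and 501 FPKM in CKO TAC hearts 13 and 31, against 860.5 and 1047 FPKM in sham hearts 14 and 15 (-0.79 ± 0.12, limma adjusted p = 0.0011). Idh3g, a regulatory subunit of NAD-linked isocitrate dehydrogenase, was 369 and 321 FPKM after TAC and 546 and 610.0 FPKM after sham (-0.74 ± 0.12, limma adjusted p = 0.0016). Suclg2 was 45.4 and 34.5 FPKM after TAC and 60.3 and 69.4 FPKM after sham (-0.70 ± 0.12, limma adjusted p = 0.0022). In each, heart 31 was the lower of the TAC hearts. Idh3a, at 305 and 254 FPKM after TAC and 380.1 and 483 FPKM after sham, fell by 0.62 (limma adjusted p = 0.007), and Sucla2, at 436 and 364 FPKM after TAC and 520.3 and 639.7 FPKM after sham, by 0.53 (limma adjusted p = 0.011).

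Among the branched-chain genes of the CKO hearts, Bckdha fell furthest, to 154 and 131 FPKM after TAC, against 267 and 296 FPKM after sham (-0.98 ± 0.10, limma adjusted p = 7.1e-05). Aldh6a1 was 75.1 and 59.6 FPKM after TAC and 118 and 143 FPKM after sham (-0.95 ± 0.12, limma adjusted p = 0.00052). Ppm1k was 19.6 and 15.4 FPKM after TAC and 29.1 and 35.9 FPKM after sham (-0.88 ± 0.16, limma adjusted p = 0.0028). For these the TAC hearts lay clearly below the sham hearts, and the same held for Bckdhb at 34.2 and 29.1 FPKM after TAC and 51.3 and 65.0 FPKM after sham (-0.86 ± 0.11, limma adjusted p = 0.0004). Bckdk fell by 0.33, to 39.0 and 36.7 FPKM after TAC, against 43.6 and 51.9 FPKM after sham (limma adjusted p = 0.034). Beside these falls, the cardiomyocyte marker sums were 102847 and 88846 FPKM after TAC and 113186 and 132770 FPKM after sham, with 7 of 12 lower; fibroblast sums were 1067 and 1204 FPKM after TAC and 662 and 673 FPKM after sham, with 6 of 8 higher. Endothelial marker sums were 411 and 429 FPKM after TAC and 317 and 256 FPKM after sham, with 3 of 5 higher, and macrophage sums were 321 and 422 FPKM after TAC and 283 and 204 FPKM after sham, with 2 of 6 higher. The part of these cell types was not tested. The counts fell to 4 cycle and 8 branched-chain genes without heart 15, to 4 and 7 without heart 31, and to 1 and 6 in a fit of the compared hearts alone. Without heart 15 or 31 the calls of Idh3a and Sucla2 were lost (limma adjusted p up to 0.14), without heart 13, 15 or 31 that of Bckdk (up to 0.32) and without heart 31 that of Ppm1k (up to 0.054).

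**Figure D2:**
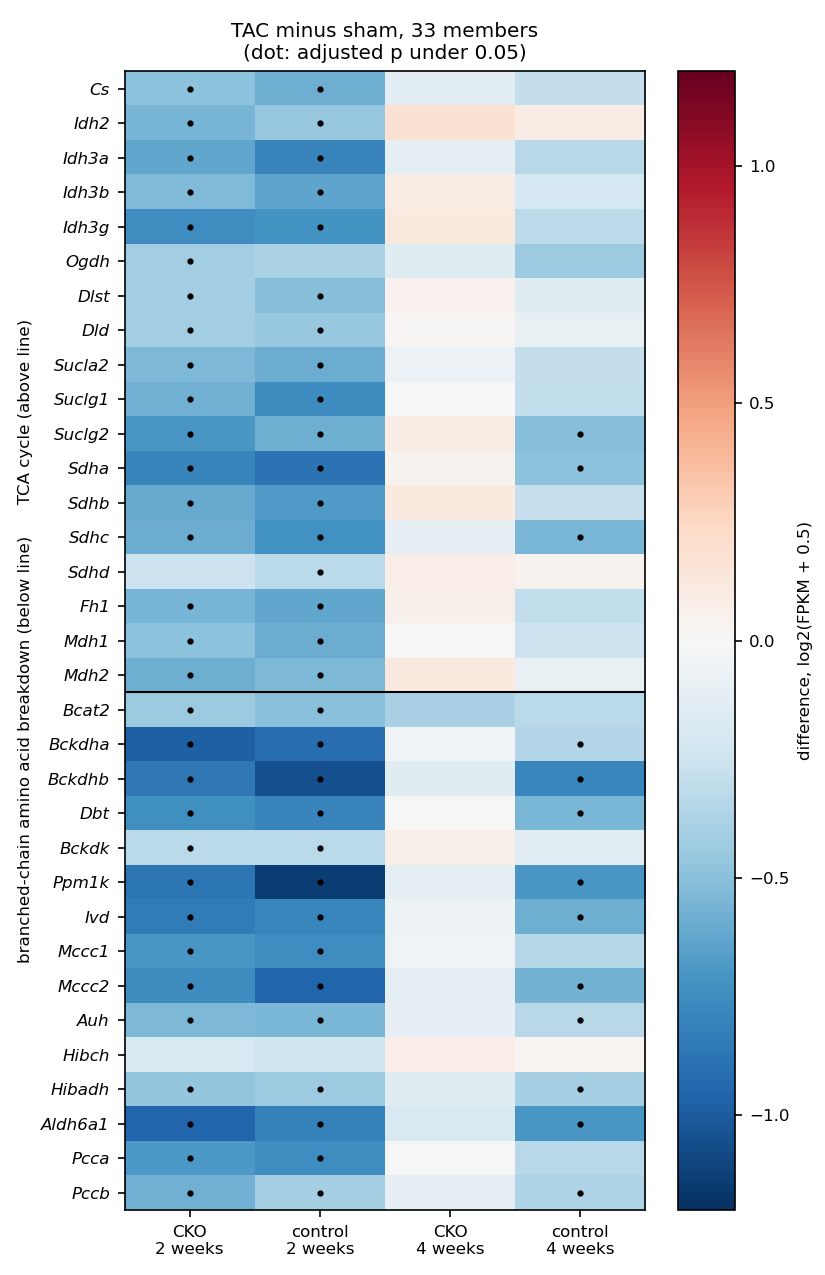
Difference TAC minus sham on the log2(FPKM + 0.5) scale (colour, blue lower after TAC) for the 33 members (rows, cycle above the line) in CKO and control hearts at 2 and 4 weeks (columns), with a dot where limma's adjusted p was under 0.05. Both columns of 2 weeks are blue throughout, while in the 4-week columns 0 members carry a dot in CKO hearts and 13 in control hearts.

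At 4 weeks 0 of 18 cycle genes and 0 of 15 branched-chain genes passed in CKO hearts, where 0.262% of all genes tested passed in either direction. At an unadjusted p under 0.05 the counts were 0 and 1, with 1601 of the 12589 genes tested. The medians were 0.05 and -0.10, 12 of 18 cycle differences were positive, and 12 of 15 branched-chain differences were negative. The TAC hearts lay above the sham hearts without overlap for 4 cycle genes (20.4% of all genes tested did), and below them for 2 cycle and 7 branched-chain genes (21.4% did). The smallest p among the cycle genes was that of Idh2, at 1804 and 1829.8 FPKM in TAC hearts 3 and 41, against 1594 and 1615 FPKM in sham hearts 4 and 8 (0.18 ± 0.13, limma adjusted p = 0.6), followed by Sdhb, the iron-sulphur subunit of succinate dehydrogenase (0.12 ± 0.11, limma adjusted p = 0.68). Bcat2 was 95.2 and 100.2 FPKM after TAC and 118 and 139 FPKM after sham (-0.39 ± 0.10, limma adjusted p = 0.12). Aldh6a1 was 112 and 109 FPKM after TAC and 131 and 121 FPKM after sham (-0.19 ± 0.12, limma adjusted p = 0.56). The values of Sucla2 (-0.07 ± 0.13), Suclg2 (0.09 ± 0.12), Bckdk (0.06 ± 0.10) and Ppm1k (-0.11 ± 0.16) had limma adjusted p of at least 0.81, and in each the hearts overlapped. Cardiomyocyte marker sums were 128576 and 121608 FPKM in these TAC hearts and 114448 and 117741 FPKM in the sham hearts, and fibroblast sums 632 and 559.8 FPKM after TAC and 716 and 686 FPKM after sham, with 0 of either list called in limma and 3 of each at an unadjusted p under 0.05; their part was not tested.

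Averaged over both times, 7 of 18 cycle genes and 13 of 15 branched-chain genes fell in CKO hearts, where 4.89% of all genes tested fell, with medians of -0.26 and -0.37. The largest were Sdha (-0.37 ± 0.09), Idh3a (-0.37 ± 0.09), Sdhc (-0.35 ± 0.08) and Idh3g (-0.31 ± 0.09) in the cycle, and Aldh6a1 (-0.57 ± 0.09), Bckdha (-0.51 ± 0.07), Bckdhb (-0.50 ± 0.08) and Ppm1k (-0.49 ± 0.11) in the branched-chain pathway, each with a limma adjusted p of at most 0.04. Suclg2 fell by 0.31 and Sucla2 by 0.30, while Bckdk, at -0.13 ± 0.07, did not pass. The call of Suclg2 was lost without any one of 12 hearts (limma adjusted p up to 0.175) and that of Sucla2 without any one of 16 (up to 0.195). Both were also lost with no filter on low values and in a fit of the compared hearts alone. Over the 8 hearts, 0 cycle genes and 3 branched-chain genes were lower in TAC hearts without overlap, against 4.05% of all genes tested. The cycle count moved between 0 and 11 when single hearts were left out: it was 0 without heart 8, 15, 31 or 41, 3 without heart 3, 4, 21 or 24, 4 without heart 1, 2, 22 or 23, and 11 without heart 14. It was 3 with no filter on low values and 0 in a fit of the CKO TAC and sham hearts alone. The branched-chain count was 6 without heart 15 or 31, and 6 in that fit of fewer hearts. The call of Ppm1k was lost without heart 4, 15 or 31 (limma adjusted p up to 0.088), and those of Aldh6a1, Bckdha and Bckdhb passed without any one heart.

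Across the 33 genes, the TAC differences of CKO and control hearts at 2 weeks, which share no heart, had a Pearson correlation of 0.877 and the same sign in all 33. At 4 weeks the correlation was 0.554, with 21 of 33 of the same sign, and 28 of 33 differences were smaller in size in CKO hearts. Genes are not independent replicates, all 33 come from the same libraries, and more abundant genes are measured with less error.

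**Figure D3:**
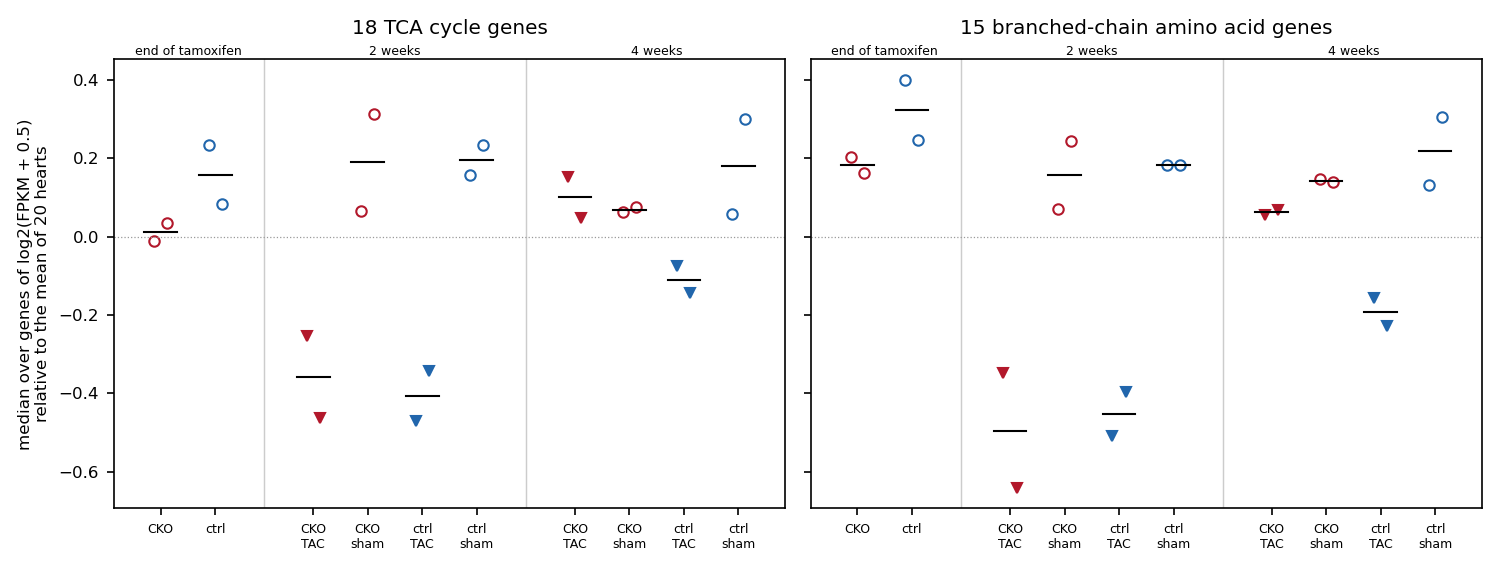
Median over the 18 cycle genes (left) and the 15 branched-chain genes (right) of each gene's log2(FPKM + 0.5) relative to its mean over the 20 hearts (vertical axis), 1 point per heart, by group (horizontal axis; colours and symbols as in the plot of 6 members). The 4 TAC hearts of 2 weeks lie between -0.25 and -0.47 for the cycle, the CKO TAC hearts of 4 weeks at 0.15 and 0.05, and the control TAC hearts of 4 weeks at -0.07 and -0.15.

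Promoters of the members were searched for motifs of factors known to regulate mitochondrial or branched-chain amino acid genes. RefSeq's table for GRCm38.p6, the assembly of mm10, held 39 promoters of 30 of the 33 genes, from 250 bases before to 50 after a start. It held none for Idh3a, Sdhc and Dbt. The motif GCGCNTGCG of nuclear respiratory factor 1, searched on both strands, was in 7 of 21 cycle promoters (33.3%, in Dld, Idh3g, Ogdh, Sdha, Sdhd and Sucla2) and in 2 of 18 branched-chain promoters (11.1%, in Hibadh and Pccb), against 6.31% of 32851 promoters in the table. The matching promoters of Ogdh overlap and hold the same site. For these and the promoters of Dld and Sdhd, the bases after the start were not found whole in any transcript of the gene in GENCODE, another annotation. For Idh3g, Sdha, Sucla2, Hibadh and Pccb they were. By gene, 6 of 16 cycle and 2 of 14 branched-chain genes had a match, against 1924 of 27025 in the table. The motif TNAAGGTCA of the oestrogen-related receptors was in 1 of 21 cycle promoters (Sdhd) and in 0 of 18 branched-chain promoters, against 1.28% of all. The Krueppel-like factor box CCACCC was in 6 of 21 (28.6%) and 7 of 18 (38.9%), against 31.5% of all. Motifs were searched for separately, and a match is a description of letters, not of binding. Below are the 250 bases before the start of 3 cycle genes with a match to the first motif and of the 2 branched-chain genes of the dehydrogenase E1 (for Bckdhb, the first of 2 starts), with that motif in capitals on whichever strand it matched. Sdha holds 3 matches, and Bckdha and Bckdhb hold none in this window.
Sdha, chr13:74350241-74350490, minus strand: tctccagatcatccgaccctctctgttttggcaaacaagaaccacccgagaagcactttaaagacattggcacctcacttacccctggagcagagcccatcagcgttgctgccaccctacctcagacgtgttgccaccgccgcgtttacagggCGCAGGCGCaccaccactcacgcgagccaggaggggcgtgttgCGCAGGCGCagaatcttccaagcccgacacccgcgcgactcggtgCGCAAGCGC
Sucla2, chr14:73552536-73552785, plus strand: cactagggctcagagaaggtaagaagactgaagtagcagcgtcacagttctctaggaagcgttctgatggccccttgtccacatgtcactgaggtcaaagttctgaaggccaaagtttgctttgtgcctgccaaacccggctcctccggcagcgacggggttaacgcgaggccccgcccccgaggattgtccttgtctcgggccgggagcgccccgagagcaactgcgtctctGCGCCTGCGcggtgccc
Idh3g, chrX:73786898-73787147, minus strand: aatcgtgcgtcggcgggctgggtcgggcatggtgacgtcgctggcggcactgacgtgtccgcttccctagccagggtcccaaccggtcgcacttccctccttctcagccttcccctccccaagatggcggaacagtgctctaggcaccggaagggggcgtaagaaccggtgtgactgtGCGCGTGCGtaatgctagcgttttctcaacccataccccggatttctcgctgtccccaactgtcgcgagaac
Bckdha, chr7:25658762-25659011, minus strand: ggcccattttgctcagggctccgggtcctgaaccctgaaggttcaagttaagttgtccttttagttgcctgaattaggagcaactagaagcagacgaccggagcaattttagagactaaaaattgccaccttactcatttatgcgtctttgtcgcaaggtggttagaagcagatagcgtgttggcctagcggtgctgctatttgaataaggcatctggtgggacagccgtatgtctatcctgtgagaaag
Bckdhb, chr9:83924887-83925136, plus strand: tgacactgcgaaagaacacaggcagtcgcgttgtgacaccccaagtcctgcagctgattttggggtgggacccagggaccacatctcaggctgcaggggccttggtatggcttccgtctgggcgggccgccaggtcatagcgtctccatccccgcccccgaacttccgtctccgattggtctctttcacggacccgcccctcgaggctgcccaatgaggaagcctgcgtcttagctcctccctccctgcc
In control hearts at 2 weeks the TAC differences were -0.89 ± 0.12 for Sdha, -0.59 ± 0.13 for Sucla2 and -0.72 ± 0.12 for Idh3g. Those of Bckdha and Bckdhb were -0.92 ± 0.10 and -1.06 ± 0.11. Whether the motifs bear on the response to TAC was not tested. Sdhd, whose promoter holds both the first motif and that of the oestrogen-related receptors, was at -0.32 ± 0.10. The remaining genes with the first motif were Dld at -0.46, Hibadh at -0.44, Pccb at -0.40 and Ogdh, which did not pass.

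Whether the response to TAC differed between genotypes was tested as the difference of the 2 responses over both times. In limma 0 of 18 cycle genes and 0 of 15 branched-chain genes passed, where 1.25% of all genes tested did in either direction, and 3 and 3 had an unadjusted p under 0.05, as did 1677 of the 12589 genes tested. The differences pointed one way: 17 of 18 and 14 of 15 were positive, that is, a TAC difference in CKO hearts above that in control hearts, with medians of 0.19 and 0.17, against 0.01 over all genes tested. Bckdhb had the smallest p, at 0.42 with a 95% interval of 0.18 to 0.65 (limma adjusted p = 0.087), and Mccc2 was at 0.33 ± 0.12 (limma adjusted p = 0.25). Sdha was at 0.32 ± 0.12 and Sdhc at 0.29 ± 0.12, each with a limma adjusted p of at least 0.27. The count of branched-chain genes was 1 without heart 15. Over the same contrast the 8 fibroblast markers were all negative, with 4 called lower, where 0.913% of all genes tested were. The 12 cardiomyocyte markers had a median of -0.01 with 0 called. The part of both lists was not tested.

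TAC hearts of both genotypes were also compared directly. Over both times Bckdhb was higher in CKO hearts, and it was the only one of the 33 to pass in limma, where 3.45% of all genes tested passed in either direction and 1.19% were higher. Bckdhb was 34.2 and 29.1 FPKM in CKO hearts at 2 weeks and 51.3 and 51.6 FPKM at 4 weeks, against 28.8 and 27.0 FPKM at 2 weeks and 36.0 and 39.9 FPKM at 4 weeks in control hearts (0.31 ± 0.08, limma adjusted p = 0.043). The call was lost when any one of 17 hearts was left out, all but 14, 15 and 31, and its limma adjusted p then reached 0.18. It was also lost without a filter on low values, in a fit of the compared hearts alone, and without the hearts with atrial markers. Sdhc (0.26 ± 0.08, limma adjusted p = 0.12) and Suclg2 (0.25 ± 0.09, limma adjusted p = 0.15) had the smallest p of the cycle genes, of which 1 passed without heart 31.

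Each time was also taken alone, a split added after the data were seen. At 2 weeks 0 of 33 passed (0.413% of all genes tested did), 2 cycle and 2 branched-chain genes were higher in both CKO hearts than in both control hearts (22.3% of all genes tested were), 1 cycle gene, Idh2, was lower in both (18.3% of all genes tested were), and the medians were 0.03 and -0.04. Idh2, at -0.27 ± 0.13, and Sdhc, at 0.22 ± 0.12, had the smallest p of the cycle genes, and Bckdhb (0.18 ± 0.11) and Aldh6a1 (-0.17 ± 0.12) of the branched-chain genes, with limma adjusted p of at least 0.42. At 4 weeks 0 of 33 passed as well (0.834% of all genes tested did), and 13 of the 33 had an unadjusted p under 0.05 in limma, 5 of the cycle and 8 of the branched-chain genes, as did 1456 of the 12589 genes tested. At that time 16 of 18 cycle genes and 14 of 15 branched-chain genes were higher in both CKO hearts than in both control hearts, where 21.5% of all genes tested were. The medians were 0.20 and 0.26.

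Suclg2 had the smallest p of the cycle genes at 4 weeks. It was 65.2 and 59.6 FPKM in CKO TAC hearts and 44.4 and 44.4 FPKM in control TAC hearts (0.48 ± 0.12, limma adjusted p = 0.097). Sdha was 903 and 849 FPKM in CKO hearts and 705 and 662 FPKM in control hearts (0.36 ± 0.12, limma adjusted p = 0.23). Dbt, the E2 core of the keto acid dehydrogenase, was 40.6 and 39.7 FPKM in CKO hearts and 24.7 and 30.5 FPKM in control hearts (0.54 ± 0.15, limma adjusted p = 0.14). For these 3 genes, and for Bckdhb (0.44 ± 0.11, limma adjusted p = 0.095), the hearts of the 2 genotypes did not overlap. The 2 cycle genes that did overlap were Idh2 and Ogdh, and the branched-chain gene was Bcat2. Beside these values, the 8 fibroblast markers were all lower in CKO hearts with a median of -0.48 and 2 called, where 0.604% of all genes tested were called lower. The 12 cardiomyocyte markers had a median of 0.04 with 0 called. The part of both lists was not tested.

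**Figure D4:**
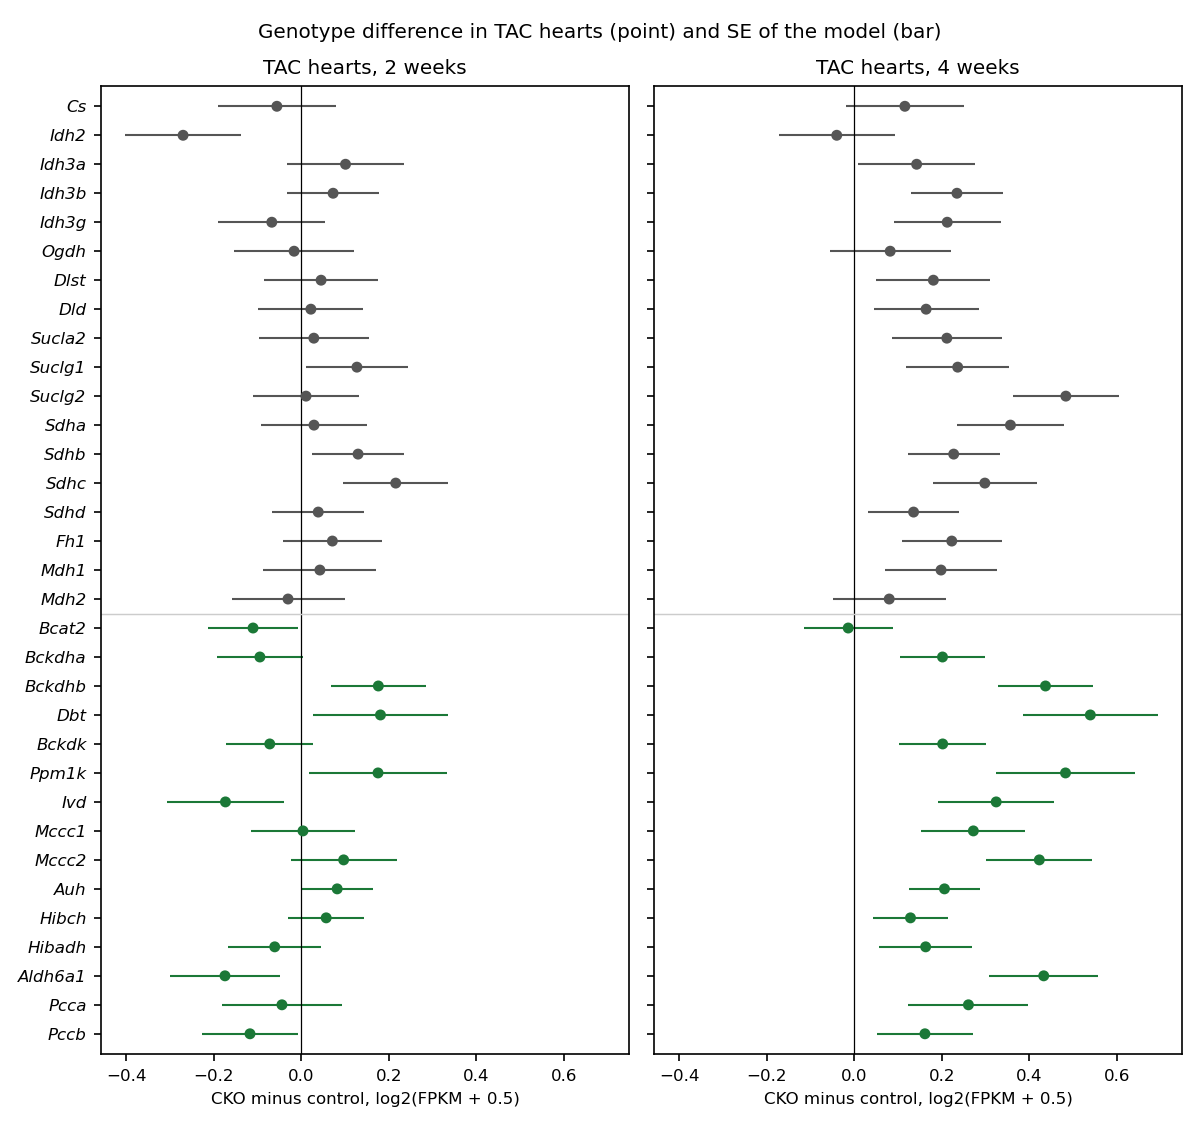
Difference CKO minus control in TAC hearts on the log2(FPKM + 0.5) scale (horizontal axis), with the SE of the fit as a bar, for the 33 members (rows, cycle in grey, branched-chain in green) at 2 weeks (left) and 4 weeks (right). At 2 weeks the points scatter around 0 with medians of 0.03 and -0.04, and at 4 weeks 31 of the 33 lie right of 0, with 0 passing limma's adjusted threshold at either time.

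CKO and control hearts without TAC were compared over the end of tamoxifen and both sham times. Of the members, 0 of 33 passed in limma (0.0159% of all genes tested did), and 0 of 33 had an unadjusted p under 0.05, where 581 of the 12589 genes tested did. All 33 differences were negative, lower in CKO hearts, between -0.02 and -0.15, with medians of -0.08 and -0.07, and in every gene the hearts overlapped. The smallest p among the branched-chain genes were those of Bckdhb (-0.13 ± 0.06) and Ivd (-0.15 ± 0.08), and among the cycle genes those of Suclg1 (-0.12 ± 0.07) and Sdha (-0.12 ± 0.07), each with a limma adjusted p of 0.96. In splits added after the data were seen, 0 of 33 passed at the end of tamoxifen (0.0159% of all genes tested did) and 0 of 33 in sham hearts (0.00794%), with 1 and 0 at an unadjusted p under 0.05. The medians were -0.14 and -0.15 at the end of tamoxifen, where 10 cycle and 10 branched-chain genes were lower in both CKO hearts than in both control hearts, as were 19.0% of all genes tested. Both CKO hearts of that stage (21 and 24) are among those with atrial markers and neither control heart (22 and 23) is, so genotype and atrial transcripts cannot be told apart there.

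Hearts without TAC were also compared between stages, over both genotypes. The sham hearts had an operation and the hearts at the end of tamoxifen had none, so time and sham operation cannot be told apart. Sham hearts of 2 weeks against those at the end of tamoxifen gave 0 cycle genes and 1 branched-chain gene (0.913% of all genes tested passed in either direction and 0.540% were lower). That gene was Bckdha, at 267 and 296 FPKM in CKO and 279.8 and 293 FPKM in control sham hearts, against 353 and 334 FPKM in CKO and 368 and 369 FPKM in control hearts taken when tamoxifen ended (-0.33 ± 0.07, limma adjusted p = 0.044). It was 1 of 2 branched-chain genes without overlap in this comparison, where 5.54% of all genes tested were lower without overlap. The call was lost without any one of 12 hearts (1, 2, 11, 12, 14, 15, 16, 21, 22, 23, 24 and 32), with no filter on low values and in a fit of the compared hearts alone. Idh3a (0.33 ± 0.09) and Idh2 (-0.27 ± 0.09) had the smallest p of the cycle genes. Sham hearts of 4 weeks against 2 weeks gave 0 calls among the 33 and 0 among all genes tested in limma, where 3 of the 33 and 1894 of the 12589 genes tested had an unadjusted p under 0.05, the 3 being Ogdh (0.27 ± 0.10), Suclg1 (-0.20 ± 0.08) and Bcat2 (0.23 ± 0.07).

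The change of the response to TAC between 2 and 4 weeks was tested as 4 minus 2 weeks, where a positive value means that the TAC difference at 4 weeks lay above that at 2 weeks. In CKO hearts 8 of 18 cycle genes and 7 of 15 branched-chain genes were higher, and 0 lower, where 2.71% of all genes tested were higher. The medians were 0.54 and 0.66, and all 33 differences were positive. Idh3g had a TAC difference of 0.12 at 4 weeks and -0.74 at 2 weeks, a change of 0.86 ± 0.17 (limma adjusted p = 0.017). The changes of Sdha (0.83 ± 0.17), Suclg2 (0.79 ± 0.17) and Idh2 (0.74 ± 0.19) followed, and Idh3b, Sdhb, Mdh2 and Fh1, the fumarate hydratase, also passed. Bckdha had the largest change of the 33, with -0.03 at 4 weeks and -0.98 at 2 weeks, a change of 0.95 ± 0.14 (limma adjusted p = 0.0057). Ivd (0.78 ± 0.19), Aldh6a1 (0.76 ± 0.18) and Bckdhb (0.72 ± 0.15) came next, and Mccc1, Mccc2 and Auh, all of leucine breakdown, also passed.

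The 12 cardiomyocyte markers moved the same way in this contrast, all positive with a median of 0.56 and 2 called higher. The fibroblast markers were all negative with a median of -1.31 and 5 of 8 called lower, and 3 of 5 endothelial markers were lower. Of all genes tested, 3.83% were called lower. The part of these markers was not tested. The counts of cycle and branched-chain genes were 1 and 1 without heart 3, 5 and 4 without heart 4, 0 and 1 without heart 8, 15 or 31, and 0 and 0 in a fit of the compared hearts alone. The branched-chain count was 11 without heart 13 and 3 without heart 41. Without the hearts with atrial markers, which leaves 1 CKO sham heart of 2 weeks (15), both counts were 3, while the changes of genes that no longer passed were 0.87 for Idh2, 0.89 for Suclg2, 0.84 for Mdh2 and 0.91 for Ivd. With no filter on low values 5 cycle genes passed. In control hearts 0 of 33 passed in limma (0.00794% of all genes tested did), 10 cycle and 4 branched-chain genes had an unadjusted p under 0.05, as did 1718 of the 12589 genes tested, and the medians were 0.37 and 0.24. The smallest p there were those of Bckdha (0.57 ± 0.14) and Mccc1 (0.40 ± 0.17), and of Idh2 (0.54 ± 0.19) and Idh3b (0.42 ± 0.15). The difference between genotypes in this change, added after the data were seen, gave 0 calls among the 33 and 0 among all genes tested in limma, where 818 of the 12589 genes tested had an unadjusted p under 0.05, among them 1 cycle and 2 branched-chain genes: Suclg2 (0.72 ± 0.24), Aldh6a1 (0.66 ± 0.25) and Ivd (0.58 ± 0.27).

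Within the pathways, 2 ratios compare members that act on the same step. The ratio of Bckdk to Ppm1k, kinase over phosphatase, was higher after TAC in both genotypes and at both times. In CKO hearts at 2 weeks it was 1.99 and 2.38 after TAC and 1.50 and 1.44 after sham, and at 4 weeks 1.91 and 1.82 after TAC and 1.53 and 1.78 after sham. In control hearts at 2 weeks it was 2.73 and 2.47 after TAC and 1.21 and 1.76 after sham, and at 4 weeks 2.31 and 2.24 after TAC and 1.56 and 1.49 after sham. In none of the 4 pairs of groups did the hearts overlap. The mean log2 ratio was 1.15 in TAC hearts and 0.61 in sham hearts, a difference of 0.54 that held its sign in 4 of 4 strata of genotype and time (exact two-sided permutation test within strata, p = 0.0015, the smallest the design allows, 0.0062 after Benjamini-Hochberg adjustment over 4 ratio tests). This rise restates, as 1 value per heart, the lower TAC differences of Ppm1k than of Bckdk given above, and is not separate support for them. Both members were chosen with earlier results of these data known. Between genotypes the difference in the ratio, CKO minus control, was -0.05 over all 5 stages (exact two-sided permutation test within stages, p = 0.51).

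**Figure D5:**
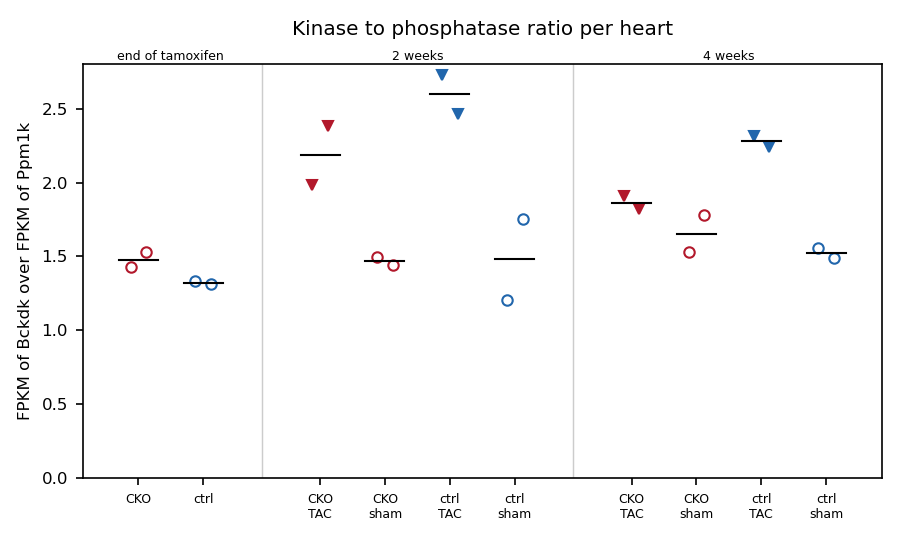
FPKM of Bckdk divided by FPKM of Ppm1k in each heart (vertical axis, from 0) by group (horizontal axis; colours and symbols as in the plot of 6 members), with the mean of the 2 hearts as a line. Every TAC heart lies above both sham hearts of its own genotype and time, by most in control hearts at 2 weeks, where the TAC hearts are at 2.73 and 2.47.

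The ratio of Suclg2 to Sucla2, GTP-forming over ATP-forming subunit, did not pass either test. Its mean log2 value was -3.29 in TAC hearts and -3.23 in sham hearts, a difference of -0.06 with the same sign in 2 of 4 strata (exact two-sided permutation test within strata, p = 0.35). For CKO minus control hearts the difference was 0.08, with that sign in 3 of 5 stages (exact two-sided permutation test within stages, p = 0.13).

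Other genes of the same pathways, outside the 33, were counted for comparison. Over both times, 16.1% of all genes tested fell and 15.3% rose in control TAC hearts, and 4.89% fell and 4.23% rose in CKO TAC hearts. Of 25 further cycle genes (among them genes of pyruvate dehydrogenase, anaplerosis and the malate-aspartate shuttle), 12 fell and 0 rose in control TAC hearts over both times, with a median of -0.21. The largest were Dhtkd1 (-0.75 ± 0.22), under 1.3 FPKM in every heart, Pcx, the pyruvate carboxylase (-0.56 ± 0.11), and Got1, the cytosolic aspartate aminotransferase (-0.50 ± 0.10). In CKO hearts 4 fell and 2 rose, with Slc25a1, the mitochondrial citrate carrier, at 0.64 ± 0.18, Pcx at -0.49 ± 0.11 and Me2, a malic enzyme, at 0.44 ± 0.09. Of 17 tested among 19 further branched-chain genes, 8 fell and 2 rose in control hearts. Mut, the methylmalonyl-CoA mutase that makes succinyl-CoA, was at -0.61 ± 0.11, with Mmab (-0.54 ± 0.08), which serves its cobalamin cofactor, and Mcee (-0.50 ± 0.11), the epimerase before it. The 2 that rose were Slc7a5 (0.41 ± 0.13) and Slc3a2 (0.35 ± 0.09), the chains of a plasma-membrane carrier of branched-chain amino acids. In CKO hearts 3 fell and 1 rose: Slc7a5 was at 0.65 ± 0.13, Acadsb, which oxidises the isoleucine intermediate, at -0.44 ± 0.09 and Mmab at -0.43 ± 0.08.

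Of 10 transcriptional regulators, 3 fell in CKO TAC hearts over both times and 5 in control TAC hearts, with 0 rising in either. The shares of all genes tested that fell were 4.89% in CKO and 16.1% in control hearts. Klf15, known in mouse heart as a regulator of branched-chain amino acid genes, had a TAC difference of -0.62 ± 0.16 in CKO hearts and -1.30 ± 0.16 in control hearts. At 2 weeks it was 17.6 and 11.4 FPKM in CKO TAC hearts and 24.9 and 25.4 FPKM in CKO sham hearts, and 10.1 and 15.5 FPKM in control TAC hearts and 34.1 and 27.6 FPKM in control sham hearts. At 4 weeks it was 21.3 and 20.5 FPKM in CKO TAC hearts and 26.5 and 30.1 FPKM in CKO sham hearts, and 15.4 and 10.8 FPKM in control TAC hearts and 28.6 and 38.8 FPKM in control sham hearts. Within each genotype and time the TAC hearts lay below the sham hearts. Ppara, the fatty acid receptor, fell by 0.60 in CKO hearts and by 0.73 in control hearts, and Ppargc1a, the co-activator of mitochondrial genes, fell by 0.42 in CKO hearts and by 0.49 in control hearts. In limma the adjusted p of these 3 regulators was at most 0.029 in either genotype.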

How the data were processed

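RNA of 20 mouse hearts was extracted with the miRNeasy Mini Kit and made into TruSeq Stranded mRNA libraries, per the labels' protocols. The authors deposited 1 table of FPKM per heart, on mm10, and the submitters' processing notes name TopHat2 2.1.1, Bowtie2 and Cuffdiff 2.2.1. Because the deposited values are FPKM and not counts, they were tested on the log2(FPKM + 0.5) scale with limma 3.58.1 in R 4.3.3, with a mean-variance trend and a mean for each of the 10 groups, which left 10 residual degrees of freedom. Each fit took in the 12589 genes whose 20 hearts averaged 0.5 FPKM or more, and p-values were adjusted over all of them by the Benjamini-Hochberg method. A fold on this scale understates the change of low genes. Both ratios were tested by exact permutation within strata. The fit was tested on simulated data. Of the 1.5-fold changes put in, it recovered 40.3% for the difference of the TAC responses and 62.7% to 71.6% in the other comparisons simulated. A count of 0 for that difference therefore does not show that the responses were equal.

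Genes named in each comparison were up to 4 called members of each pathway with the largest absolute difference or, where none was called, the 2 with the smallest p, with Sucla2, Suclg2, Bckdk and Ppm1k in every comparison of TAC with sham. The members and all lists were chosen with earlier results of these data known. Alternatives were pseudocounts of 0.1 and 1, filters of 0 and 3 FPKM, median-ratio scaling, a fit of the compared hearts alone, leaving out each heart and, added after the data were seen, leaving out 5 hearts with Myl7 of 10 FPKM or more. Near-identical copies were searched for with BLAST 2.17.0. Promoter sequences are from RefSeq.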

Additional observations from a re-analysis of the deposited data

Results flagged for a closer look

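The response to TAC in CKO hearts differed between 2 and 4 weeks, by limma's test of the difference itself (4 minus 2 weeks, log2 scale), for 15 members. Of all genes tested, 2.71% were higher in this test. In the cycle the differences were 0.86 for Idh3g, 0.83 for Sdha, 0.79 for Suclg2, 0.74 for Idh2, 0.72 for Sdhb, 0.71 for Mdh2, 0.63 for Idh3b and 0.62 for Fh1. In the branched-chain pathway they were 0.95 for Bckdha, 0.78 for Ivd, 0.76 for Aldh6a1, 0.72 for Bckdhb, 0.66 for Mccc1, 0.64 for Mccc2 and 0.44 for Auh. Each was positive: the TAC difference at 4 weeks lay above that at 2 weeks. No member kept its call in a fit of the compared hearts alone. Without heart 8, 15 or 31 the counts were 0 for the cycle and 1 for the branched-chain genes. Between genotypes, the difference in this change gave 0 calls. Groups of 2 hearts could not be tested for outlying samples.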

How the results depend on the processing

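No paired analysis was possible because every heart has a number of its own and no number is shared between groups. Pseudocounts of 0.1 and 1, a filter of 3 FPKM and median-ratio scaling moved no count of members by over 1.5 times. With no filter, counts were 3 for cycle genes in CKO TAC hearts over both times, 0 for branched-chain genes between genotypes in TAC hearts, 5 for cycle genes in the change of the CKO response and 0 for branched-chain genes between 2-week sham and the end of tamoxifen. In a fit of the compared hearts alone, CKO TAC against sham gave 0 cycle and 6 branched-chain genes over both times and 1 and 6 at 2 weeks, control hearts at 4 weeks gave 3 branched-chain genes, and the change of the CKO response gave 0 and 0. That fit also gave 0 branched-chain genes between genotypes in TAC hearts and 0 between 2-week sham and the end of tamoxifen. Without the 5 hearts with atrial markers, control TAC hearts gave 10 cycle genes over both times and 4 cycle and 8 branched-chain genes at 2 weeks, the change of the CKO response gave 3 and 3, and TAC hearts between genotypes gave 0 branched-chain genes; at 2 weeks this leaves 1 heart in each control arm. The cause of these shifts was not tested, although the fits of fewer hearts also have fewer residual degrees of freedom. Of the 142 calls on single members, 142 were kept with either pseudocount and with the filter of 3 FPKM, 138 with scaling, 126 with no filter and 72 in the fit of the compared hearts alone, and 94 of 141 without the hearts with atrial markers; none of these changed sign.

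Leaving out single hearts gave these ranges of cycle and branched-chain counts. For TAC against sham over both times they were 0 to 11 and 6 to 13 in CKO hearts, and 13 to 16 and 13 to 14 in control hearts. At 2 weeks they were 4 to 17 and 7 to 14 in CKO hearts, and 11 to 18 and 11 to 15 in control hearts, and at 4 weeks 0 to 5 and 2 to 11 in control hearts. The change of the CKO response gave 0 to 10 and 1 to 11, the difference of responses 0 and 0 to 1, genotypes in TAC hearts 0 to 1 and 0 to 1, and 2-week sham against the end of tamoxifen 0 and 0 to 1. The TAC difference in the log2 ratio of Bckdk to Ppm1k lay between 0.470 and 0.606. Its genotype difference lay between -0.10 and 0.0037, the last without heart 16 and of the opposite sign to the value over all hearts. For Suclg2 to Sucla2 the TAC difference lay between -0.10 and -0.02 and the genotype difference between 0.048 and 0.115. With 2 hearts a group and absolute depth not given, small differences of low genes could not be resolved.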
